A study of Mus musculus with 8 samples.

Results

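The genes described here encode 10 subunits of the BAF complex, the mammalian SWI/SNF chromatin remodeller: Smarca4, Smarca2, Smarcb1, Smarcc1, Smarcd1, Arid1a, Arid1b, Ss18, Brd9 and Actl6a. They are 10 of 21911 protein-coding genes in the GENCODE annotation of mm10, and each was examined over its gene body plus 20 kb on either side. All peaks that touched these windows were taken, whatever their height, so no member was lost to a filter. CUT&Tag, which uses an antibody to bring a transposase to its target and tags the DNA nearby, had been performed on mouse embryonic fibroblasts (MEFs) at day 5 of reprogramming. One arm, labelled Nanog+Oct4 and called NanogWT here, received wild-type Nanog with Oct4. The other, labelled NanogN70+Oct4, is taken from the study's text to be NanogBiD, in which the N-terminal domain of SS18 that binds BRG1 is joined to NANOG, again with Oct4. Both arms therefore carried retroviral Oct4 and a FLAG-tagged form of NANOG, in MEFs prepared from OG2 embryos that bear an Oct4-GFP reporter. Each arm was profiled with antibodies to FLAG, BRG1 (the product of Smarca4), H3K27ac and H3K4me1, which gives 8 libraries and 1 library per group.

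BAF complexes slide and evict nucleosomes with the energy of ATP, which is hydrolysed by BRG1 (Smarca4) or its paralogue BRM (Smarca2). SMARCB1, SMARCC1 and SMARCD1 belong to the core on which the complex is assembled, ARID1A and ARID1B are alternative subunits of canonical BAF, BRD9 marks the non-canonical form, and ACTL6A is an actin-related subunit that binds the ATPase. SS18 binds BRG1 through its N-terminal domain, the very domain carried by NanogBiD, and its gene is examined here like those of its partners. H3K27ac is found at active promoters and enhancers, and H3K4me1 at enhancers and around active promoters. A CUT&Tag peak shows where a protein or mark was, not how much RNA a gene made.

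The lists hold 30859 to 74782 peaks, and their summit heights, the tag pileup at the top of a peak, have medians of 13 to 16 tags. Neither the height nor the peak caller's significance score was scaled to library depth, which the lists do not give. With 1 merged library per group no spread between cultures can be measured, and no test between arms was possible. Intervals cover counting error only. As a check of the cell label, 9 of 10 fibroblast markers (all but Prrx1) had an H3K27ac promoter peak in either arm, with heights of 11 to 49 tags in NanogWT and 11 to 50 tags in NanogBiD. Of 10 pluripotency markers, 0 had one in NanogWT and 1, Tdgf1 (20 tags), had one in NanogBiD. Among markers of other cell types, Cd68 had one in both arms (36 tags in NanogWT), and Krt8, Kdr, Cdh5 and Ptprc had one in NanogBiD alone. Their part in the results below was not tested.

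The regions that separate the arms are those where FLAG and BRG1 peaks lay together in 1 arm only. The 5 such regions that came first by the lower of their FLAG and BRG1 heights, leaving out Ss18 and UTRs, all belonged to NanogBiD, and 300 bases around each FLAG summit are printed because they are the sequences at which the fusion and BRG1 were found together while neither was called with wild-type NANOG. They are on the plus strand of mm10. Capitals mark matches on either strand to the letters TGANTCA for AP-1, the OCT octamer ATGCAAAT, ACAAAG or else ACAATG for SOX factors, GGAATG for TEAD factors or CCATTA for a homeodomain core of the kind NANOG binds. A match on the minus strand reads as the reverse complement of these letters.
Arid1b intron, chr17:5212257-5212556: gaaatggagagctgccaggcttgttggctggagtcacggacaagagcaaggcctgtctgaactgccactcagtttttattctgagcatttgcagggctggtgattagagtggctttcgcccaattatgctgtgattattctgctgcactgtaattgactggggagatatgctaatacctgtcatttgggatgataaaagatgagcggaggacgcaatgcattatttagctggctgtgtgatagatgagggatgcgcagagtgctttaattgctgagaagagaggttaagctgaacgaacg
Smarcd1, near the gene start, chr15:99705006-99705305: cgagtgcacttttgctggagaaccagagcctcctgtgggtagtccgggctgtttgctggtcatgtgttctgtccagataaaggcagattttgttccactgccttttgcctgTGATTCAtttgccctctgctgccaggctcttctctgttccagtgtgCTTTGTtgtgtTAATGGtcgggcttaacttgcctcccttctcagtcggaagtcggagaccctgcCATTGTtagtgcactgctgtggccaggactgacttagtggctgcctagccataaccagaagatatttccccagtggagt
Arid1b intron, chr17:5324646-5324945: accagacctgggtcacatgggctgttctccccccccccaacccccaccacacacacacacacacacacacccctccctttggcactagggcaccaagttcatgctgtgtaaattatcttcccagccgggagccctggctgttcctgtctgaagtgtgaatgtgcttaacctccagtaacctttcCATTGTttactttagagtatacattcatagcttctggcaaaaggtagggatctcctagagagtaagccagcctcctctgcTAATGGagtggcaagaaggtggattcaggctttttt
Smarca2 intron, chr19:26661998-26662297: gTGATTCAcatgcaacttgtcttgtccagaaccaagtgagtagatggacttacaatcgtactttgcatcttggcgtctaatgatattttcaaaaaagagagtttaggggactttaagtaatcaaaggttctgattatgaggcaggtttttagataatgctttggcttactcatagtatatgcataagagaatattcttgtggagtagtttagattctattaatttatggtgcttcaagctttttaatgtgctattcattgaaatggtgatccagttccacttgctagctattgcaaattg
Arid1b intron, chr17:5007124-5007423: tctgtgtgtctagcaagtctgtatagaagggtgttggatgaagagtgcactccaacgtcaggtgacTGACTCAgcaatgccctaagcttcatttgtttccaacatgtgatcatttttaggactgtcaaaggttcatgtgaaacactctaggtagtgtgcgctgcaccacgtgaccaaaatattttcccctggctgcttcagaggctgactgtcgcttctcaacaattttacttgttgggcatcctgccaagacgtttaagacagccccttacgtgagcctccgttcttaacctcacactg
The first, in the intron of Arid1b with the tallest pair of summits, held none of these letters. The Smarcd1 sequence held 4 matches, to AP-1, to both SOX words and to the homeodomain core. The Arid1b intron sequence after it held ACAATG and the homeodomain core, and the last sequences, of Smarca2 and Arid1b, held 1 AP-1 match each. Across all 89 FLAG regions of the members, 16 (17.98%) had AP-1 letters within 150 bp of the summit, against 23.3% of 88183 FLAG regions in the whole lists. ACAAAG was found at 22 (24.7% against 24.0%), GGAATG at 16 (17.98% against 18.9%), CCATTA at 12 (13.5% against 16.2%), ACAATG at 12 (13.5% against 19.9%) and the octamer at 3 (3.37% against 5.08%). A match describes letters and not a bound site.

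The promoters of all members carried NANOG, BRG1 and H3K27ac in both arms. Counting peaks that reached within 2 kb of an annotated start site, 10 of 10 members had a FLAG peak in NanogWT and 10 of 10 in NanogBiD, where 55.2% and 56.8% of all protein-coding genes did. For BRG1 the counts were again 10 and 10, against 53.9% and 55.5% of genes, and for H3K27ac 10 and 10, against 57.1% and 59.9%. H3K4me1 was at 10 promoters in NanogWT and 9 in NanogBiD, against 63.3% and 62.0% of genes. Among genes with an H3K27ac promoter peak in either arm, which the members all are, 86.8% and 88.0% had a FLAG promoter peak and 85.7% and 87.1% a BRG1 promoter peak, shares much nearer to those of the members. When only the 20000 peaks with the highest scores were kept in each list, FLAG was left at 6 member promoters in either arm (31.2% of all genes in NanogWT and 27.8% in NanogBiD). BRG1 was then at 9 in NanogWT and 6 in NanogBiD, against 46.8% and 36.0% of genes.

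For each gene start the tallest summit was taken among the peaks that reached within 2 kb of it. Of the 79 summits so chosen, 14 lay farther away themselves, at 2.23 to 2.44 kb downstream, namely 6 of Arid1a and 8 of Actl6a. At the 10 gene starts FLAG summits ranged from 13 to 46 tags in NanogWT and from 12 to 40 tags in NanogBiD, and 7 were higher in NanogBiD, 2 lower and 1 equal. BRG1 summits ranged from 15 to 39 and from 10 to 32 tags, with 3 higher in NanogBiD and 7 lower. The median log2 ratio of NanogBiD over NanogWT was 0.12 for FLAG, beside 0.10 over 10184 genes with a peak in both arms, and -0.19 for BRG1, beside 0 over 10111 genes. H3K27ac was higher at 3 and lower at 7 (median log2 ratio -0.04, against 0.08 over all genes), and H3K4me1 was higher at 1 and lower at 8 of 9 (-0.11, against -0.12). With only summits inside 2 kb, which leaves Actl6a with none, the median was 0.29 for FLAG at 9 members, against 0.10 over all genes. The 95% interval of the ratio included 1 at each of these gene starts for each target. A change of at least 1.5-fold was seen in 1 of 10 members upward for FLAG (Arid1b), against 10.5% of genes, and in 0 downward, against 3.79%. For BRG1 it was 0 upward (4.91% of genes) and 1 downward (Smarcb1, against 5.33%), for H3K27ac 0 upward (4.97%) and 0 downward (0.853%), and for H3K4me1 0 upward (0.970%) and 1 of 9 downward (Smarca2, against 6.54%). With 0 or 1 member in each, these counts are near the background.

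**Figure D1:**
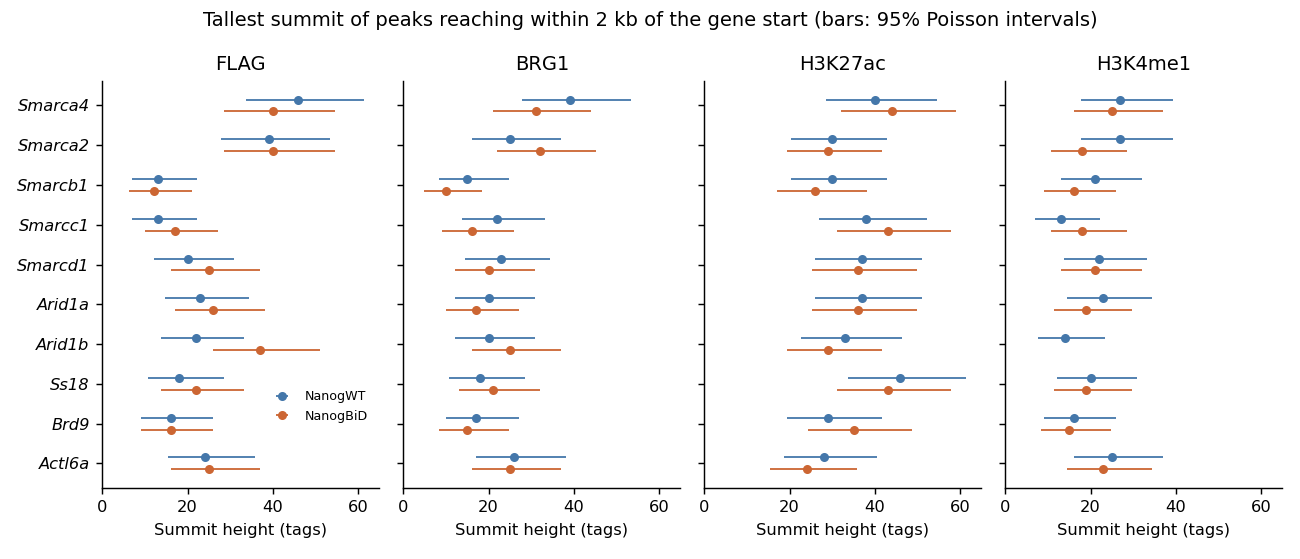
Height in tags (x axis) of the tallest summit among peaks that reach within 2 kb of each gene start, for the 4 targets, in NanogWT (blue) and NanogBiD (orange); points are single libraries and bars are exact Poisson 95% intervals for counting error. The intervals of the arms overlap at each gene and target shown, and Arid1b has no H3K4me1 point in NanogBiD because no peak was called there.

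Over their whole windows the members had 69 FLAG peaks with NanogWT and 82 with NanogBiD, or 1.19 times as many (95% interval 0.852 to 1.66), and BRG1 peaks 49 and 64, a ratio of 1.31 (0.886 to 1.94). H3K27ac peaks numbered 57 and 69 (ratio 1.21, 0.840 to 1.75), and H3K4me1 peaks 84 and 69 (ratio 0.821, 0.589 to 1.14). Each interval includes 1. In the windows of all protein-coding genes the same division gave 1.24 (FLAG), 1.56 (BRG1), 1.159 (H3K27ac) and 0.798 (H3K4me1). Keeping the 20000 highest-scoring peaks of each list sets the ratio of whole lists to 1 by construction. The FLAG ratio then became 0.960 (0.967 over all genes), that of BRG1 0.758 (0.8999), that of H3K27ac 0.969 (0.982) and that of H3K4me1 1.08 (1.02). Without Ss18, which went from 2 to 8 BRG1 peaks, the FLAG and BRG1 ratios were 1.09 and 1.19. Without Arid1b they were 1.34 and 1.5.

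Member by member, FLAG peaks were more numerous in NanogBiD at 6 of 10 genes (50.2% of genes with a FLAG peak) and fewer at 1 (17.7%). BRG1 peaks were more numerous at 5 (53.2%) and fewer at 0 (12.7%). For H3K27ac the counts were 6 (37.3%) and 2 (17.4%), and for H3K4me1 1 (19.7%) and 8 (51.6%). Long genes hold more peaks, and the windows of the members had a median length of 108 kb against 57.4 kb for all genes.

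**Figure D2:**
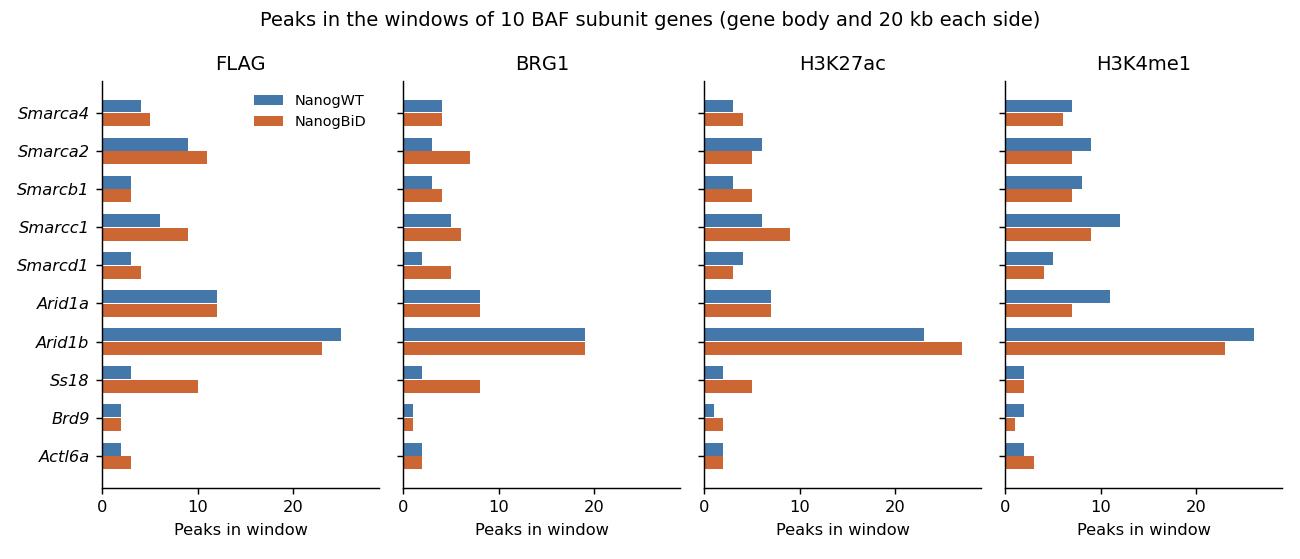
Number of peaks (x axis) in the window of each member for FLAG, BRG1, H3K27ac and H3K4me1, in NanogWT (blue) and NanogBiD (orange), with 1 library per bar. Ss18 goes from 3 to 10 FLAG peaks and from 2 to 8 BRG1 peaks, whereas Arid1b, the longest gene, goes from 25 to 23 and from 19 to 19.

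Where both arms had a peak, the median log2 ratio of heights was 0.04 for FLAG at 61 regions (31 higher, 27 lower, 3 equal), beside 0.15 at all such regions of the lists, and 0.15 for BRG1 at 37 regions (22 higher, 13 lower, 2 equal), beside 0.14. H3K27ac had a median of 0 at 50 regions, beside 0.08, and H3K4me1 a median of -0.22 at 58 regions (7 higher, 46 lower, 5 equal), beside -0.18. Beyond these, 7 of 89 FLAG regions were called in NanogWT alone and 21 in NanogBiD alone, where 15.8% and 33.7% of all FLAG regions in the lists were. For BRG1 it was 12 and 26 of 75 regions, against 9.91% and 48.4%, and for H3K27ac 4 and 17 of 71, against 14.6% and 29.1%. H3K4me1 went the other way, with 26 and 10 of 94 regions, against 34.8% and 17.3%. Peaks called in 1 arm only were low in either arm. Those of NanogBiD had medians of 13 tags for FLAG and 10 tags for BRG1, against 19 and 20 tags in NanogBiD at the shared regions. Those of NanogWT had medians of 15 and 12 tags, against 17 and 19 tags in NanogWT at the shared regions. The whole lists showed the same. There the FLAG and BRG1 medians were 12 and 11 tags in NanogBiD only, against 18 and 16 at shared regions. In NanogWT only they were 11 and 10 tags, against 16 and 14. The interval of the height ratio excluded 1 at 6 of the 61 FLAG regions, 4 above and 2 below, where 6.63% and 1.78% of all shared FLAG regions in the lists did. It did so at 0 of 37 for BRG1 (5.17% above and 0.109% below in the lists), at 0 of 50 for H3K27ac (0.784% and 0.287%) and at 1 of 58, below 1, for H3K4me1 (0.00723% and 0.294%). Counts this small say nothing particular to the members. These intervals are not adjusted for the number of regions, and the regions are given with their genes below.

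**Figure D3:**
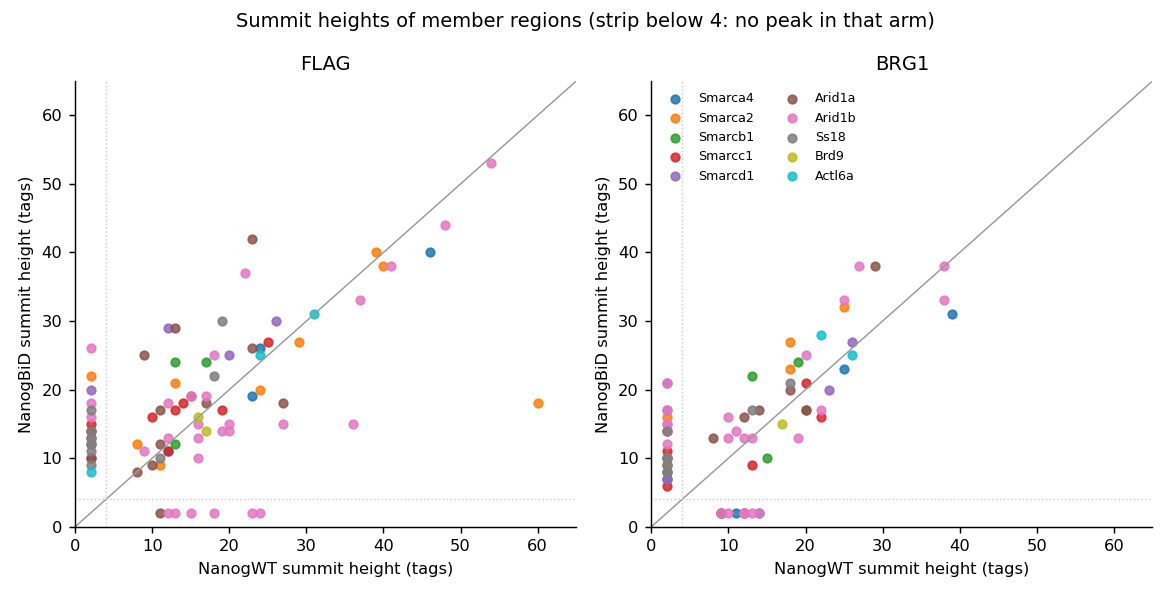
Summit height in tags in NanogWT (x axis) and NanogBiD (y axis) of each FLAG region (left) and BRG1 region (right) in the member windows, coloured by gene, with a line at equal heights; points in the strips below the dotted lines had no peak in that arm. Most shared regions lie near the line, the Smarca2 region at 60 and 18 tags is the farthest below it, and the strip of NanogBiD-only regions on the left stays at or below 26 tags.

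FLAG and BRG1 coincided at most sites of these genes. In NanogWT, 45 of 69 FLAG peaks overlapped a BRG1 peak (65.2%, Wilson 95% interval 53.4 to 75.4), beside 44.1% of FLAG peaks in the whole list. In NanogBiD it was 59 of 82 (72.0%, 61.4 to 80.5), beside 64.7%. The intervals of the arms overlapped at the members. The shares were 46.9% and 64.8% with scores of at least 100 (38.3% and 60.8% in the whole lists). They were 54.5% and 71.2% with heights of at least 15 tags (35.6% and 49.6%), and 80.0% and 87.5% with the 20000 highest-scoring peaks (60.5% and 77.5%). When FLAG and BRG1 peaks of both arms were merged, the windows held 95 regions of 93352, and 37 (38.9%, against 23.7%) had both proteins in both arms. A further 13 (13.7%, against 11.1%) had both in NanogBiD only and 3 (3.16%, against 1.55%) had both in NanogWT only. Where FLAG was in both arms, BRG1 was in NanogBiD only at 7 (7.37%, against 15.2%) and in NanogWT only at 4 (4.21%, against 1.53%). FLAG without BRG1 was found in NanogBiD only at 6 (6.32%, against 18.5%), in NanogWT only at 4 (4.21%, against 11.4%) and in both arms at 12 (12.6%, against 7.22%).

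**Figure D4:**
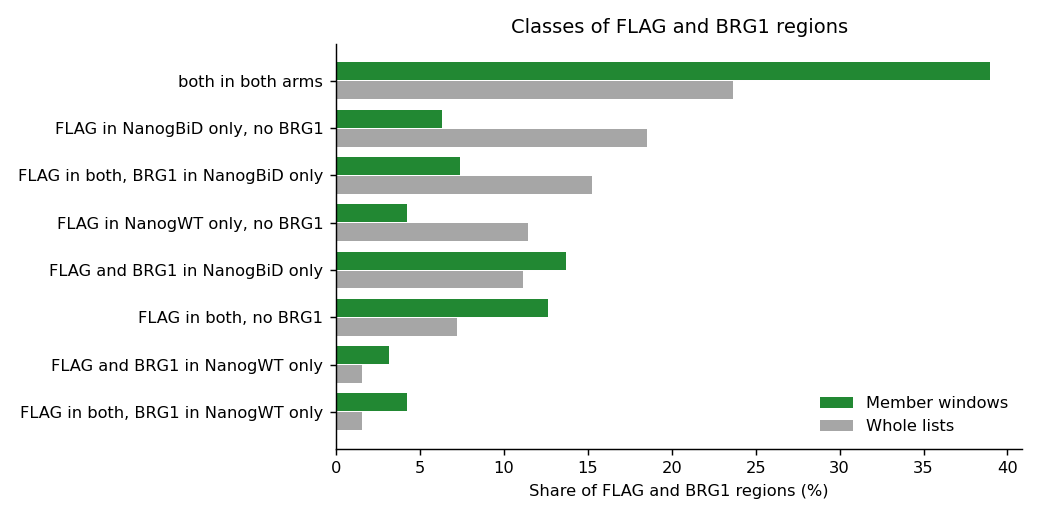
Share in percent (x axis) of merged FLAG and BRG1 regions in each of 8 classes, for the 95 regions of the member windows (green) and the 93352 regions of the whole lists (grey). The class with both proteins in both arms takes 38.9% of member regions and 23.7% of all regions, while the class with both in NanogBiD only takes 13.7% and 11.1%.

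The 13 regions with both proteins in NanogBiD only lay at 5 of 10 members (26.2% of genes had at least 1), namely Ss18 with 5, Arid1b with 4, Smarca2 with 2, and Smarcc1 and Smarcd1 with 1 each. Per Mb of window this is 9.60 regions, beside 4.64 over the windows of all genes. Regions with both proteins in both arms were denser at the members too, at 27.3 and 12.5 per Mb. Of the 13, 9 lay in introns, 1 in an exon, 1 at an internal start site, 1 near a gene start and 1 downstream of a gene. H3K27ac peaks overlapped 2 of them in NanogWT and 7 in NanogBiD, where 6.72% and 28.5% of the 10376 regions of this class in the whole lists had one. H3K4me1 peaks overlapped 1 and 2, against 23.2% and 33.7%. The opposite class, both proteins in NanogWT only, was seen at 1 member, Arid1b (6.50% of genes had at least 1). Stricter peak lists, merged anew, gave fewer NanogBiD-only regions. There were 5 beside 1 NanogWT-only region with scores of at least 100 (5360 beside 686 in the whole lists). With heights of at least 15 tags there were 8 beside 0 (4109 beside 472). These are not all among the 13, because a shared region joins the class when its NanogWT peaks are dropped. The Arid1a region at 27.03 kb (FLAG 13 and 29 tags, BRG1 14 and 17) did so with heights of at least 15 tags. Among the 20000 highest-scoring peaks there were 3 beside 4 at the members and 3096 beside 1660 in the whole lists.

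Smarca4 (chr9:21616169-21704230, plus strand) encodes BRG1 itself, and its promoter had the tallest FLAG and BRG1 gene-start summits of the set in NanogWT. FLAG stood at 46 tags in NanogWT and 40 in NanogBiD, BRG1 at 39 and 31, H3K27ac at 40 and 44 and H3K4me1 at 27 and 25. An exonic region 31.8 kb into the gene had FLAG in both arms (23 and 19 tags) and BRG1 in NanogBiD only (9 tags). BRG1 peaks numbered 4 in either arm. Another in NanogBiD only lay in an intron 46.6 kb from the start (7 tags), and those in NanogWT only lay at -17.7 kb (14 tags) and downstream at 99.3 kb (11 tags). At -17.7 kb a FLAG peak was called in NanogBiD only (13 tags).

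Smarca2 (chr19:26605050-26778322, plus strand), which encodes the alternative ATPase BRM, held the steepest single difference of FLAG. At an exonic region 25.5 kb from its start, FLAG was 60 tags in NanogWT, the tallest FLAG summit in the member windows, and 18 in NanogBiD (ratio 0.300, 0.167 to 0.515). No BRG1 peak lay there in either arm, no H3K27ac peak either, and H3K4me1 was 16 and 12 tags. At 57.2 kb, the intron region printed above had FLAG at 22 and BRG1 at 16 tags in NanogBiD and neither in NanogWT, with no mark over it in either arm. A second region of the same class, 158 kb from the start, had 14 and 10 tags. The promoter itself had FLAG at 39 and 40 tags, BRG1 at 25 and 32, H3K27ac at 30 and 29 and H3K4me1 at 27 and 18. Internal start sites at 143 kb and 165 kb carried all 4 targets in both arms, with H3K27ac at 27 and 38 tags at the former.

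**Figure D5:**
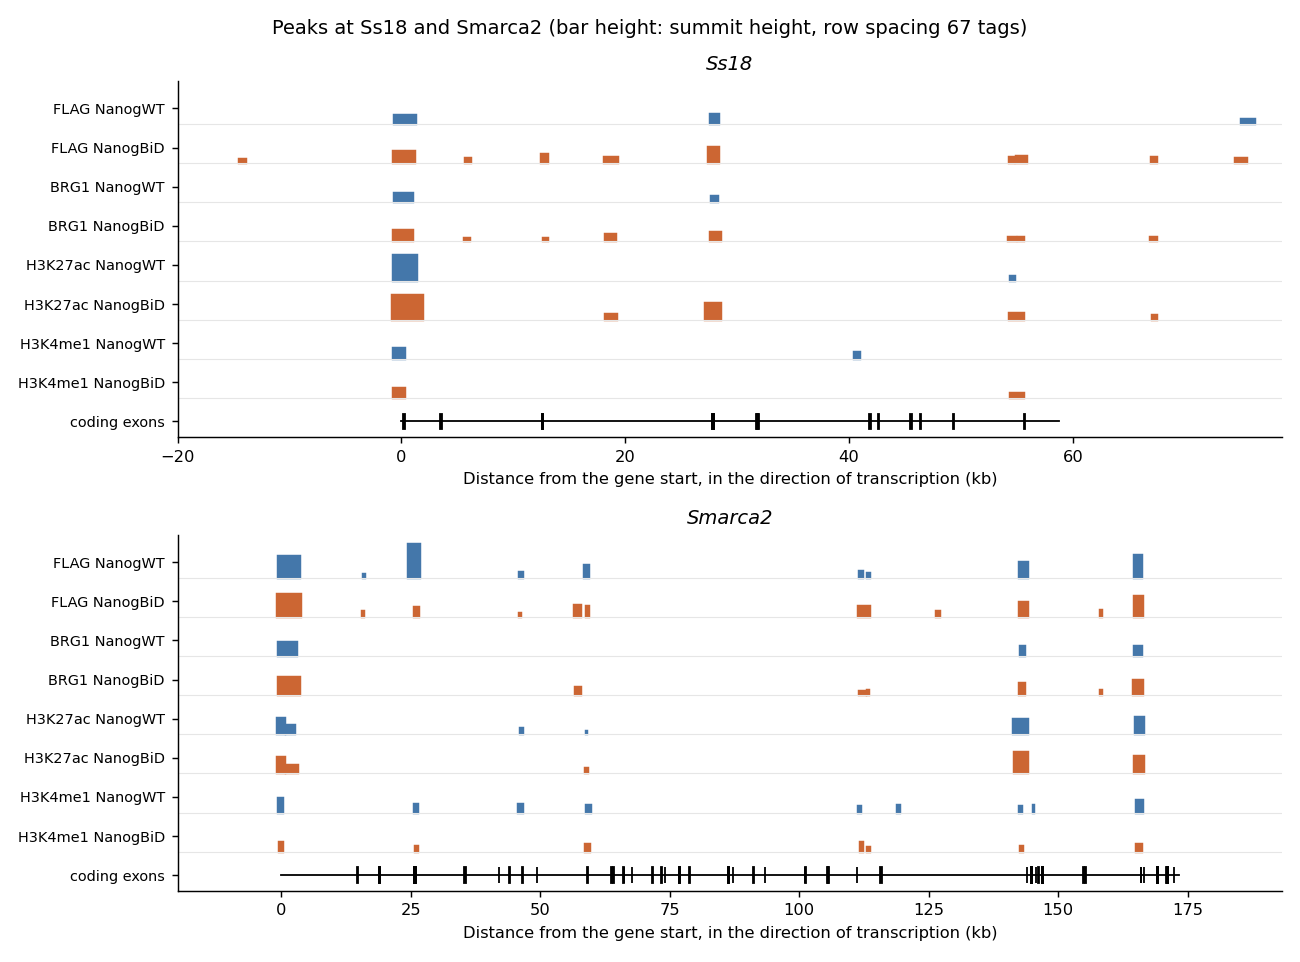
Peaks of the 8 libraries at Ss18 (top) and Smarca2 (bottom) against distance in kb from the gene start in the direction of transcription (x axis); the height of each bar is the summit height, in the same scale in all rows, and black blocks are coding exons. At Ss18 the rows of FLAG and BRG1 in NanogBiD hold 10 and 8 peaks against 3 and 2 in NanogWT, and at Smarca2 the FLAG summit of 60 tags in NanogWT stands over one of 18 tags in NanogBiD.

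Smarcb1 (chr10:75896769-75921617, minus strand), whose product binds the nucleosome, had 3 FLAG peaks in either arm, each with BRG1 in both arms. Its gene start had FLAG at 13 and 12 tags, BRG1 at 15 and 10, H3K27ac at 30 and 26 and H3K4me1 at 21 and 16. The other 2 regions were higher in NanogBiD for FLAG and BRG1 without leaving counting error. FLAG was 17 and 24 tags and BRG1 13 and 22 tags at the promoter of the neighbour Derl3, and 13 and 24, and 19 and 24 tags, downstream of Smarcb1. Smarcc1 (chr9:110117708-110240178, plus strand), a scaffold subunit, had gene-start FLAG of 13 and 17 tags, BRG1 of 22 and 16, H3K27ac of 38 and 43 and H3K4me1 of 13 and 18, the only one of these gene-start summits with more H3K4me1 in NanogBiD. In an intron 44.4 kb from its start, FLAG (14 tags), BRG1 (11 tags) and H3K27ac (11 tags) were all called in NanogBiD alone. BRG1 was also called in NanogBiD alone at exonic regions 32.1 kb (6 tags) and 88.6 kb (14 tags) away, where FLAG was in both arms. It was called in NanogWT alone in an intron at 111 kb (9 tags) and at the promoter of the neighbour Cspg5 at 127 kb (12 tags). The tallest FLAG summit of Smarcc1, at an internal start site 14.2 kb in, was 25 and 27 tags.

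Smarcd1 (chr15:99702129-99713991, plus strand), a core subunit that contacts transcription factors, is the shortest member, and 3 of its BRG1 peaks were called in NanogBiD alone. Its gene start had FLAG at 20 and 25 tags, BRG1 at 23 and 20, H3K27ac at 37 and 36 and H3K4me1 at 22 and 21. The region printed above, centred 2.74 kb from the start, had FLAG at 20 and BRG1 at 17 tags in NanogBiD only. H3K27ac covered it in both arms, and an H3K4me1 peak of 14 tags was there in NanogWT only. The scores of these FLAG and BRG1 peaks, 58.6 and 66.8, were near the lowest score in the lists, 50. At the promoter of the neighbour Gpd1, a glycerol-3-phosphate dehydrogenase gene, FLAG was 12 and 29 tags (ratio 2.42, 1.20 to 5.20). BRG1 (21 tags) and H3K27ac (21 tags) were called there in NanogBiD alone, and H3K4me1 was 16 and 18 tags. At Cox14, another neighbour, all 4 targets were present in both arms, with FLAG at 26 and 30 tags.

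Arid1a (chr4:133679008-133756769, minus strand), which encodes a DNA-binding subunit of canonical BAF, held 3 of the 4 regions where FLAG was higher in NanogBiD beyond counting error. In an exon 68.1 kb from its start FLAG was 23 and 42 tags (ratio 1.83, 1.07 to 3.18), with BRG1 at 29 and 38, H3K27ac at 32 and 28 and H3K4me1 at 23 and 20. In introns 27.03 kb and 21.4 kb from the start FLAG was 13 and 29 tags (2.23, 1.12 to 4.67) and 9 and 25 tags (2.78, 1.25 to 6.76). BRG1 at these introns was 14 and 17, and 8 and 13 tags, and H3K27ac 19 and 25, and 11 and 20 tags. H3K4me1 was 25 and 19 tags at the former, and 23 tags at the latter in NanogWT, with no peak in NanogBiD. The number of FLAG peaks in the window was 12 in either arm, with an exonic one 76.4 kb from the start in NanogBiD only (10 tags) and an intronic one 15.1 kb from it in NanogWT only (11 tags). At an internal start site 4.95 kb from the start FLAG was 27 and 18 tags (ratio 0.667, 0.346 to 1.26). Its promoter held a pair of regions. Over the gene start itself FLAG was 15 and 19 tags, BRG1 20 and 17 and H3K4me1 14 and 15, and an H3K27ac peak of 22 tags with a score of 58.2 was called in NanogWT alone. The summits about 2.4 kb downstream were taller, with FLAG at 23 and 26 tags, H3K27ac at 37 and 36 and H3K4me1 at 23 and 19, and BRG1 was 18 and 16 tags there. The peak caller's score depends on the local background as well as on the height.

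Arid1b (chr17:4994332-5347656, plus strand), the paralogue of Arid1a, is the longest member and supplied 25 and 23 FLAG peaks, 19 BRG1 peaks in either arm, 23 and 27 H3K27ac peaks and 26 and 23 H3K4me1 peaks. It was the only member with exchanged sites, 4 where the pair was found in NanogBiD only and 3 where it was found in NanogWT only. The former lay 12.9, 213, 218 and 330 kb from the start, with FLAG at 16, 13, 26 and 18 tags and BRG1 at 15, 14, 21 and 17 tags. H3K27ac was called in NanogBiD alone at those 213 kb (11 tags) and 218 kb (10 tags) away. The latter lay 181, 261 and 292 kb from the start, with FLAG at 23, 12 and 15 tags and BRG1 at 14, 12 and 12 tags. H3K27ac remained over these 3 in NanogBiD, at 16, 13 and 14 tags beside 21, 16 and 13 in NanogWT. Of the 1448 regions of this class in the whole lists, 64.1% had an H3K27ac peak in NanogWT and 36.4% in NanogBiD.

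Elsewhere in Arid1b an exonic region 312 kb from the start had FLAG at 36 tags in NanogWT and 15 in NanogBiD (ratio 0.417, 0.212 to 0.780), while BRG1 was 22 and 17 and H3K27ac 37 and 22 tags. H3K4me1 at an intron 196 kb from the start was 37 and 21 tags (ratio 0.568, 0.316 to 0.995), where FLAG was 37 and 33 and BRG1 38 and 38. The tallest FLAG summit of the gene, in an intron 157 kb in, was 54 and 53 tags, with BRG1 at 27 and 38. At the gene start FLAG was 22 and 37 tags (ratio 1.68, 0.966 to 2.99), BRG1 20 and 25, H3K27ac 33 and 29, and an H3K4me1 peak of 14 tags was called in NanogWT alone.

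Ss18 (chr18:14624198-14682914, minus strand), the source of the BRG1-binding domain in the fusion, stood out by number of peaks when peaks of any height were counted. FLAG peaks numbered 3 in NanogWT and 10 in NanogBiD, BRG1 peaks 2 and 8, H3K27ac peaks 2 and 5, and H3K4me1 peaks 2 in either arm. It held 5 of the 13 NanogBiD-only regions, 50.6 per Mb of its window. At least 5 such regions were found at 0.739% of all genes, and at least 6 more BRG1 peaks at 3.10% of genes with a BRG1 peak. Among genes with an H3K27ac promoter peak in either arm the shares were 1.12% and 3.62%. Both of these thresholds were set after the values of Ss18 were seen, so they place the gene and test nothing.

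The 5 regions were low. Their BRG1 summits, at 8 to 14 tags, all lay below the stricter height setting of 15 tags. With scores of at least 100, only the region 18.7 kb away kept both proteins (161 for FLAG and 115 for BRG1). Among FLAG and BRG1 peaks of Ss18 called in NanogBiD alone, only the FLAG summit of 17 tags reached 15 tags. From the gene start onward, FLAG and BRG1 were 11 and 8 tags in an intron 5.87 kb away, 17 and 8 at an internal start site 12.8 kb away, and 13 and 14 in an intron 18.7 kb away. They were 14 and 10 in an exon 55.0 kb away and 12 and 10 downstream of the gene, 67.2 kb away. H3K27ac was called in NanogBiD at 3 of them, at 12, 13 and 10 tags going away from the start, and in NanogWT at 1, the exonic one, at 10 tags. H3K4me1 was called only at that exonic region, in NanogBiD, at 11 tags. An exonic region 27.9 kb from the start had both proteins in both arms, FLAG at 19 and 30 tags and BRG1 at 13 and 17. H3K27ac there was called in NanogBiD alone, at 30 tags with a score of 120. The promoter had FLAG at 18 and 22 tags, BRG1 at 18 and 21, H3K27ac at 46 and 43 and H3K4me1 at 20 and 19, and none of these differed beyond counting error.

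Because the introduced fusion carries coding sequence of Ss18, the exons that encode the first 70 residues, 210 of 1254 coding bases of transcript Ss18-201, were looked at one by one. Exon 1 (chr18:14682667-14682735) lay under the promoter peak in all 8 lists. Exon 2 (chr18:14679387-14679463) had no peak in any of the 8. Exon 3 (chr18:14670330-14670393) lay within the NanogBiD-only region at the internal start site, with the FLAG and BRG1 summits 184 and 265 bp away and no H3K27ac or H3K4me1 peak. The other 4 NanogBiD-only regions of Ss18 overlapped none of these exons. What tags from the introduced sequence added to the region over exon 3 was not tested.

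Brd9 (chr13:73937811-73960895, plus strand), which marks non-canonical BAF, and Actl6a (chr3:32706298-32726973, plus strand), the actin-related subunit, were the quietest loci. Brd9 had 2 FLAG peaks and 1 BRG1 peak in either arm, and its gene start had FLAG at 16 and 16 tags, BRG1 at 17 and 15, H3K27ac at 29 and 35 and H3K4me1 at 16 and 15. The summits of Actl6a nearest to its gene start lay 2.23 to 2.41 kb downstream of it, with FLAG at 24 and 25 tags, BRG1 at 26 and 25, H3K27ac at 28 and 24 and H3K4me1 at 25 and 23. Its tallest FLAG summit, over the start sites of the neighbours Mrpl47 and Ndufb5, was 31 tags in either arm. An upstream FLAG peak of 8 tags in NanogBiD alone was the only FLAG or BRG1 peak at Actl6a that was called in 1 arm only.

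A fixed list of 21 other genes of the BAF, PBAF and ncBAF complexes was counted in the same way, and each interval again includes 1. Over their windows FLAG peaks numbered 81 and 100 (ratio 1.23, 0.912 to 1.68), BRG1 peaks 67 and 87 (1.30, 0.933 to 1.81), H3K27ac peaks 70 and 74 (1.06, 0.752 to 1.49) and H3K4me1 peaks 110 and 84 (0.764, 0.568 to 1.02). FLAG peaks were more numerous in NanogBiD at 11 and fewer at 3 of the 21, BRG1 peaks at 8 and 3, H3K27ac peaks at 6 and 5, and H3K4me1 peaks at 1 and 13. Regions with both proteins in NanogBiD only were found at 6 of them: the PBAF genes Pbrm1 (2 regions) and Arid2 (2), the ncBAF gene Bicra (1), the PHD-finger gene Dpf1 (2), and Bcl11a (2) and Bcl11b (2), which encode zinc-finger proteins. Bcl11a and Bicra also had 1 region each with both in NanogWT only. Pbrm1 went from 4 to 11 BRG1 peaks, a larger step than at Ss18, and Dpf1 had no FLAG, BRG1 or H3K27ac peak in NanogWT and 2 of each in NanogBiD. Ss18l1, the paralogue of Ss18, had 5 FLAG and 4 BRG1 peaks in either arm.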

How the data were processed

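Reads were trimmed by the authors with Trim Galore (version 0.6.4, here and below per the methods and the submitters' processing notes), aligned to mm10 with Bowtie2 (2.4.5) and filtered with SAMtools (1.16.1), and merged replicates were passed to MACS (1.4.2) for peak calling. The study states in general that its experiments were repeated, but how many replicates entered each list is not given in the sources used here. In the deposited peak lists each value is the significance score of MACS (lowest 50), and each deposited summit carries a signal, the height of the tag pileup there (lowest 6). The authors scaled neither to depth, which is unknown.

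Peaks and summits were joined by name, and overlapping peaks of compared lists formed 1 region, overlap meaning at least 1 bp. Gene bodies came from GENCODE vM21, and sequence from the GRCm38 (mm10) genome. Promoters were 2 kb either side of any annotated start. Distances are from the gene start to the centre of a region. Ratios of counts or heights have exact binomial 95% intervals, heights exact Poisson intervals and shares Wilson intervals. Intervals cover counting error only, as no test between arms was possible. Each background is the share of protein-coding genes, or of peaks or regions in the whole lists where so named, that meet the same rule. Region merging was tested on simulated data. The named genes were all members, with each region that had FLAG and BRG1 in 1 arm only, and other BAF genes with such a region. The members and lists were chosen with earlier results of these data known. Alternatives were scores of at least 100, the 20000 highest-scoring peaks, heights of at least 15, windows of 5 or 50 kb, summits instead of peaks, leaving out Arid1b or Ss18, scores for heights, scaled heights, merging across 500 bp, other promoter rules and motif windows of 50 bp. Python 3.11.15, pandas 2.3.3, numpy 2.4.6 and scipy 1.17.1 were used.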

Additional observations from a re-analysis of the deposited data

Results flagged for a closer look

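The ratio of peak numbers in the member windows, NanogBiD over NanogWT, ran in opposite directions for H3K4me1 (0.821) and BRG1 (1.31). The same division over the windows of all protein-coding genes gave 0.798 and 1.56, which are opposed as well. When each list was cut to its 20000 top-scoring peaks, the member ratios turned to 1.08 and 0.758. The difference was not tested, since each group is 1 merged library, and both intervals included 1.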

How the results depend on the processing

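No paired analysis was possible because the labels carry no replicate numbers and replicates were merged. Of the comparison values recomputed under the alternatives, 133 stayed within the set tolerance and 27 moved past it, and of the background shares over genes with an H3K27ac promoter peak 21 stayed and 7 moved. With scores of at least 100, H3K4me1 was left at 5 member promoters in NanogWT, 5 regions had FLAG and BRG1 in NanogBiD only and 1 in NanogWT only, and 46.9% of NanogWT FLAG peaks overlapped BRG1. With the 20000 highest-scoring peaks, FLAG was left at 6 promoters in NanogWT and 6 in NanogBiD, BRG1 at 9 in NanogWT and 6 in NanogBiD and H3K4me1 at 5 in NanogWT. The BRG1 peak ratio was then 0.758, the BRG1 median log2 height ratio 0.30, the NanogBiD-only regions 3 beside 4 NanogWT-only, and the overlap of FLAG with BRG1 80.0% in NanogWT and 87.5% in NanogBiD. These 2 settings remove peaks by construction. The overlap under each alternative was added after seeing the data. With heights of at least 15 tags there were 8 NanogBiD-only and 0 NanogWT-only regions. Without Ss18 there were 8 NanogBiD-only regions. Without Arid1b there were 0 NanogWT-only regions, and the H3K27ac median was 0.13. With gene-start summits inside 2 kb only, also added after seeing the data, the FLAG median was 0.29. With heights scaled to the median of all shared regions, the medians were -0.12 for FLAG, 0.0145 for BRG1 and -0.0418 for H3K4me1, a shift fixed by the scaling itself, which takes 0.15 from each FLAG value. Within 50 bp of the summit the matches were 4 for AP-1 (4.49% against 9.49% of all FLAG regions), 5 for ACAAAG (5.62% against 8.90%), 5 for ACAATG (5.62% against 8.06%), 2 for GGAATG (2.25% against 6.98%) and 3 for CCATTA (3.37% against 6.71%). The cause of these shifts was not tested otherwise. Summits of 6 to 15 tags carry wide counting intervals, so a region called in 1 arm only may hold tags below the calling threshold in the other.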
